A study of Xenopus tropicalis with 8 samples.

Results

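Untreated testis from juvenile males of the frog Xenopus (Silurana) tropicalis was described from 4 of the 8 arrays of the study, those titled as 0 µM controls. The members were all 4 arrays with that title, so no measured value chose them. The tissue had been kept in L-15 culture medium at 26 °C for 6 h, with the label of the agent giving 0 µM. The other 4 arrays held testis tissue kept for the same time and temperature with 5 µM finasteride, an inhibitor of the steroid 5-alpha-reductases. Per the series' design text each arm had 8 samples, of which the analysis covers 4 arrays each. No label tells if an array holds 1 animal or a pool, so every spread and p-value below measures the differences between these samples only, which may be technical. The tissue had been in culture, so the values describe cultured and not freshly taken testis.

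The testis makes sperm in tubules or cysts in which germ cells develop in contact with Sertoli cells. Leydig cells lie between the tubules and make androgens from cholesterol. Germ cells pass through meiosis, the divisions that halve the chromosome number, and then build a flagellum, a motile cilium whose core is the axoneme. Many genes of the axoneme, of meiosis and of protein turnover are known for high activity in the testes of vertebrates.

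Levels were read as the log2 of the processed Cy3 intensity of a probe minus the 75th percentile of its array. A level of 0 is therefore that percentile, and a level of 1 is 2-fold above it. Spot brightness depends on the probe as well as on the amount of transcript, so the order of genes below is an order of signal. In a tissue sample, fewer cells of a type and less RNA per cell cannot be told apart. A gene was called well above background by the scanner software's own flag, in any of its probes.

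Of 32899 probes, 4872 carried a gene symbol through their transcript, which gave 4639 named genes. The names of the probes hold either the word specific or the word xhyb, and 3471 genes were read from specific probes and 1168 from xhyb probes. It was not tested if such an xhyb probe reads its own gene alone, so its genes are marked throughout. Genes that usually define the cells of a testis, among them ddx4, dazl, dmrt1, sox9, amh, cyp11a1, cyp17a1 and insl3, and the 5-alpha-reductase genes srd5a1, srd5a2 and srd5a3, were not analysed here because no probe was named for them.

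The 75th percentile of intensity was 719, 1475, 1686 and 825 on controls 1 to 4, and no spot was saturated on them. The share of probes well above background ran from 73.3% to 77.3%, against 0.654% to 1.96% of 153 negative control spots. Pairs of control arrays correlated at 0.969 to 0.988 over probes, which are not independent replicates. The lowest value was that of controls 3 and 4 and the highest that of controls 1 and 2. Slide 1 held controls 1 and 2 and slide 2 held controls 3 and 4. Controls 2 and 4 lay at position 1 of their slides and controls 1 and 3 at position 3.

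Most named genes gave signal in the untreated testis. Of 4639 named genes, 3523 (75.9%) were well above background on all 4 control arrays and 674 (14.5%) on none, which are called dim. The remaining 442 (9.53%) were above on 1 to 3 arrays. Genes whose mean level reached the 95th percentile of all probes, a level of 2.97 or 7.82-fold the 75th percentile, are called bright here, and there were 164 of them (3.54%). The mid-level band, from the 40th to the 60th percentile of the probes above background on all 4 arrays, ran from -1.75 to -0.33 and held 684 genes (14.7%). The median level of all named genes was -2.61.

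**Figure D1:**
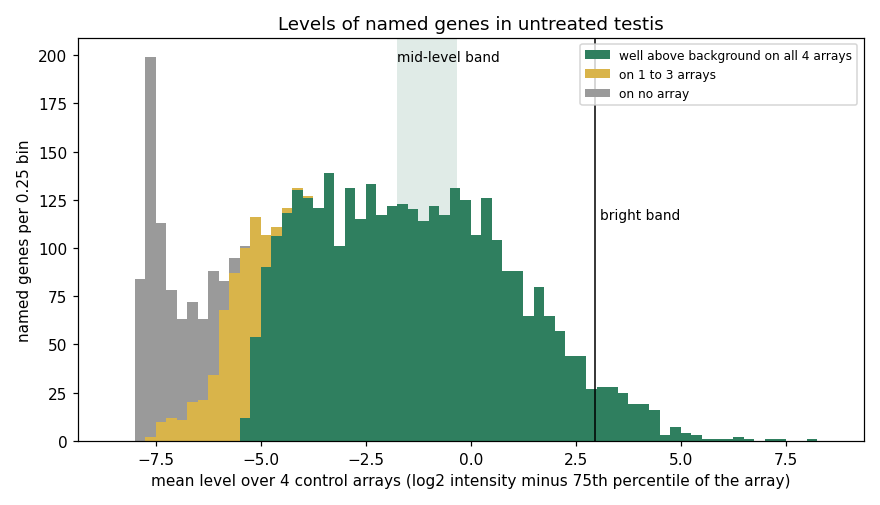
Number of named genes (vertical axis, per bin of 0.25) by mean level over the 4 control arrays (horizontal axis, log2 intensity minus the 75th percentile of the array). Green bars count the 3523 genes well above background on all 4 arrays, yellow bars those on 1 to 3 arrays and grey bars the 674 on none, which pile up at the low end. The shaded span is the mid-level band and the line at 2.97 is the lower edge of the bright band.

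Genes read from xhyb probes took a larger share of the top than of the whole: 73 of the 164 bright genes (44.5%) were read from one, against 25.2% of all named genes. Bright genes made up 6.25% of the genes read from xhyb probes and 2.62% of those read from specific probes. The brightest named gene of all, rax, a homeobox gene of the eye field, was an xhyb reading with levels of 8.37, 7.85, 7.53 and 8.31 on controls 1 to 4. In all, 17 genes on xhyb probes were brighter than the dimmest of the 25 described next. They were rax, ddx46, sh3kbp1, cyp1b1, myzap, foxf1, hnrnpr, efcab14, pax1, cirbp, cmtm8, cdc45, nog, kiaa0586, selenop1, capn8.1 and xpo4.

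The 25 brightest genes on specific probes were of mixed kinds, and 6 of the 25 belonged to any of the gene lists. Levels of rnf227, a RING finger gene, were 6.78, 6.41, 6.17 and 6.72 on controls 1 to 4. For pip5kl1, a gene related to the phosphoinositide kinases, they were 6.26, 6.33, 6.21 and 6.32. The nucleoporin gene nup214 gave 6.23, 5.83, 5.91 and 6.01. Each of these lay far above the edge of the bright band on every control array, and the widest range among the 3 was 0.61, that of rnf227.

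Chaperone genes held 3 of the 25 places. The inducible heat shock protein gene hspa1b gave 6.32, 6.14, 5.69 and 6.52, and its constitutive relative hspa8 gave 5.26, 5.03, 5.33 and 5.27. The chaperonin subunit gene tcp1 gave 4.22, 4.13, 4.36 and 4.34. The range over the control arrays was 0.83 for hspa1b, with control 3 lowest, and 0.30 for hspa8. In all, the bright band held 6 of the 26 named chaperone genes, 5 of them on specific probes. Besides the 3 above these were ppic, a cyclophilin, with a mean level of 4.07 ± 0.18 (SD, n = 4), and hspa5, the chaperone of the endoplasmic reticulum, with 3.17 ± 0.14 (SD, n = 4). Of the 26, 23 were above background on all 4 arrays and 2 on none, dnajc15 and dnajc2, both xhyb readings. The median level of the chaperone list was -0.13, beside -2.61 for all named genes.

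Genes of the ubiquitin and proteasome system appeared beside them. The proteasome ATPase gene psmc1 gave 4.69, 4.71, 4.65 and 4.98 on controls 1 to 4. The bright band also held psmd3, a subunit of the regulatory particle, at 4.05 ± 0.13, psmb7, a catalytic subunit of the core, at 3.55 ± 0.14, and psmg4, an assembly chaperone, at 3.12 ± 0.07 (SD, n = 4 each). Thus 4 of the 9 named proteasome genes were bright, all on specific probes, and 7 were above background on all 4 arrays. Above background but not bright were psme4, an xhyb reading, at 0.55 ± 0.32, psmd11 at -2.02 ± 0.20 and psmb7.2, named as a copy of psmb7, at -4.01 ± 0.32 (SD, n = 4 each). Not well above background on any array were psmb5 and psmb11. In mammals psmb11 is the subunit of the thymus. Also among the 25 were faf1 and ubxn4, which carry ubiquitin-related domains, at 4.42 ± 0.13 and 4.38 ± 0.09, and the deubiquitinase gene otud1 at 4.40 ± 0.16 (SD, n = 4 each). The genes faf1, ubxn4 and otud1 were on no list and were grouped here after their values were seen.

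Of the flagellum list, 1 gene stood among the 25, the MORN repeat gene morn2, with 4.56, 4.75, 4.48 and 4.68. On no list, levels of qrich2, needed for the sperm flagellum in mouse, were 4.47, 4.48, 4.34 and 3.83, with control 4 below the other controls. For c1orf194, known as an axonemal protein in mammals, they were 4.25, 4.27, 4.36 and 4.22. The remaining genes of the 25 were tmsb15a (5.27 ± 0.21), an actin-binding thymosin, c19orf53 (5.22 ± 0.22), man1a2 (5.02 ± 0.17), a Golgi mannosidase, c8h9orf43 (4.91 ± 0.18) and saraf (4.82 ± 0.06), a regulator of store-operated calcium entry. They ended with samd15 (4.69 ± 0.10), sat2 (4.44 ± 0.19), micos13 (4.40 ± 0.20), a protein of mitochondrial cristae, dapl1 (4.35 ± 0.25), aknad1 (4.31 ± 0.18), iah1 (4.29 ± 0.15) and yars2 (4.27 ± 0.33), the mitochondrial tyrosyl-tRNA synthetase (mean level ± SD, n = 4 each).

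**Figure D2:**
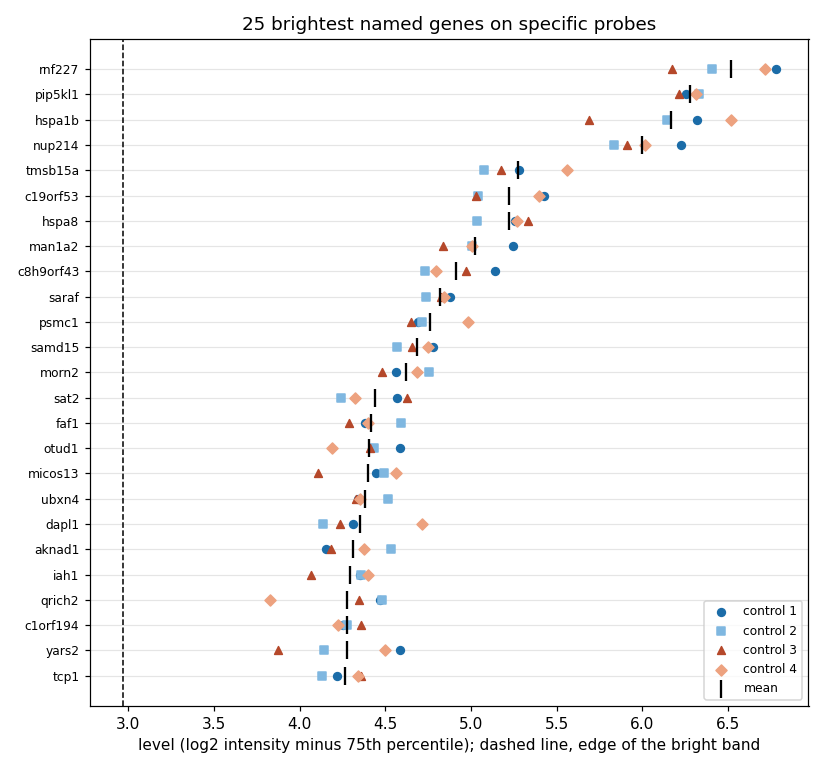
Level (horizontal axis, log2 intensity minus the 75th percentile) of the 25 named genes of highest mean on specific probes, with 1 symbol per control array and a bar at the mean. All values lie right of the dashed line at 2.97, from 3.83 for qrich2 on control 4 to 6.78 for rnf227 on control 1.

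At the lower edge of the bright band the members differed little from their neighbours. Just inside lay cabcoco1 at 3.00 ± 0.15, mrpl34 at 2.99 ± 0.15 and mr1, an xhyb reading, at 2.97 ± 0.07. Just outside lay ccdc96 at 2.97 ± 0.10, nbn at 2.95 ± 0.10 and mrpl57 at 2.94 ± 0.15 (mean level ± SD, n = 4 each). The SD of each spans the edge, so membership of the band near it is not settled by these arrays. On single arrays, 136 of the 164 bright genes lay at or above the array's own 95th percentile on all 4 controls.

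The lists drawn up for the cells of the testis were detected more often than all named genes. All lists were chosen with earlier results of these data known, so the shares below are a description only. Over 6 lists (germ cells, meiosis, spermatid and flagellum, Sertoli cells, Leydig cells and steroid synthesis, and peritubular cells) 72 of 82 named genes (87.8%) were above background on all 4 control arrays and 9 on none, beside 75.9% and 14.5% of all named genes. Over 11 lists of other cells and tissues 75 of 127 (59.1%) were above on all and 32 (25.2%) on none. These 11 included endothelium, leukocytes and erythrocytes, which were not counted among the testis lists although a testis can hold such cells. On specific probes alone the shares above on all were 88.2% of 68 genes and 54.4% of 90 genes. The median level was -0.55 for the testis lists and -3.72 for the others. Single lists did not all follow this order. The liver list had a median of -1.56, above the -2.13 of the Leydig cell list and the -2.77 of the peritubular list. It lay below the germ cell, meiosis, flagellum and Sertoli cell lists. On specific probes alone the liver median was -3.31. The difference between the lists was not tested, and the 127 genes include some that many tissues use.

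Genes of the flagellum formed the largest testis list with signal. Of 37 named genes 33 were above background on all 4 arrays, with a median of 0.47, and 28 of the 37 lay above the median of all named genes. Besides morn2, odf2l, related to a protein of the outer dense fibres, was bright, with 3.42, 3.54, 3.62 and 3.56 on controls 1 to 4. The dynein intermediate chain gene dnai2 gave 2.92, 2.88, 2.99 and 2.63 on the brightest of its 14 probes, while the lowest of the 14 averaged -0.11. The 11 repeat probes among them averaged -0.02, so most probes of dnai2 read far below the level given. The cilia- and flagella-associated genes cfap206, cfap299 and cfap57 had mean levels of 2.81 ± 0.11, 2.79 ± 0.24 and 2.66 ± 0.22 (SD, n = 4 each).

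Members of this list differed in how far the arrays agreed. Levels of morn3 were 2.38, 3.13, 1.95 and 3.13, higher on controls 2 and 4 than on controls 1 and 3. Those of tcte1, a subunit of the axonemal regulatory complex, were 2.42, 1.22, 2.36 and 0.91, higher on controls 1 and 3. By contrast spata4 stayed between 2.09 and 2.39. The transcription factor gene crem, a regulator of genes of the spermatid in mouse, gave 2.11, 1.77, 2.33 and 1.77. Not well above background on any array were ttc25, rsph10b, gsg1 and, on an xhyb probe, cfap70. Outside the list, and noticed after the values were seen, the bright band held pifo at 3.89 ± 0.13, tex33 at 3.62 ± 0.04, ccdc173 at 3.61 ± 0.22 and efhb at 3.42 ± 0.28 (SD, n = 4 each), all known from cilia or sperm in mammals.

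Meiotic genes held 2 bright members among 7. The axis protein gene hormad1, whose product marks unsynapsed chromosomes, gave 3.81, 3.89, 4.07 and 3.52 on controls 1 to 4. For hsf2bp, a partner of the recombination protein BRCA2 in mouse, the levels were 3.92, 3.33, 3.84 and 3.39, again higher on controls 1 and 3 than on controls 2 and 4. Levels of ythdc2, needed for entry into meiosis in mouse, averaged -1.22 ± 0.15, and those of the exonuclease gene exo1 -1.52 ± 0.16 (SD, n = 4 each), both in the mid-level band. The synaptonemal complex gene sycp3 was dim on every control array. It was read from an xhyb probe, the only probe named for it, and whether that probe reads the gene was not tested.

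Germ cell genes were detected throughout: 8 of 8 were above background on all 4 arrays, with none bright and a median of 0.25. Levels of dmrtb1, which times the switch to meiosis in mouse, were 1.86, 1.79, 2.14 and 1.85. The receptor gene ret, through which GDNF acts on spermatogonia in mouse, gave 1.70, 1.72, 1.51 and 1.62, while gdnf itself was dim on all 4 arrays. The Piwi gene piwil1, which acts with piRNAs against transposons, gave -0.18, 0.16, 0.77 and -0.11, with control 3 highest. For tex15, which acts in meiotic repair and transposon silencing in mouse, the levels were 0.37, 0.18, 0.67 and 0.15. The RNA-binding gene pum2 averaged -2.87 ± 0.05 (SD, n = 4).

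Sertoli cell genes were above background on all 4 arrays for 9 of 11 (81.8%), beside 75.9% of all named genes. The brightest of the list, kitlg, the ligand of the germ cell receptor KIT, was an xhyb reading with 3.31, 3.26, 3.16 and 3.16. On a specific probe sox8, a relative of sox9, gave 0.58, 0.86, 0.47 and 1.06. The androgen receptor gene ar, through which testosterone and dihydrotestosterone act, gave -0.49, -0.35, -0.58 and -0.01 and lay in the mid-level band. The range of its 4 values was 0.57. Neither gdnf nor vim.2 was well above background. With specific probes alone the list's median fell from -0.36 to -1.92, since kitlg, inhba and cldn11 were xhyb readings.

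The Leydig cell and steroid list was named on specific probes only, and 12 of its 14 genes were above background on all 4 arrays. The electron donor gene por, which serves the cytochromes P450, gave 1.37, 1.52, 1.35 and 1.55 on controls 1 to 4. The repressor gene nr0b1 gave 0.94, 1.03, 0.71 and 0.61, and the lipoprotein receptor gene scarb1 0.34, 0.38, -0.45 and 1.00. The cholesterol transport gene star, whose product begins steroid synthesis, gave -0.12, -1.15, 0.05 and -0.04, so that control 2 lay below the other controls, which differed little. The electron carrier gene fdx1 gave -0.15, -0.81, -0.06 and -0.55, also lowest on control 2.

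The enzyme genes of steroid metabolism that were named lay lower in signal. The androgen synthesis genes cyp11a1 and cyp17a1 were not among them, since no probe was named for them. Levels of hsd17b1 averaged -1.94 ± 0.21, of hsd17b2 -2.32 ± 0.33 and of hsd11b2, which inactivates glucocorticoids, -3.27 ± 0.50. The 21-hydroxylase gene cyp21a2.1, which serves the adrenal steroids, averaged -4.46 ± 0.45 (SD, n = 4 each). The Notch-related ligand gene dlk1 was above background on 1 control array and hsd17b14 on none. The list's median was -2.13, close to the -2.61 of all named genes.

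**Figure D3:**
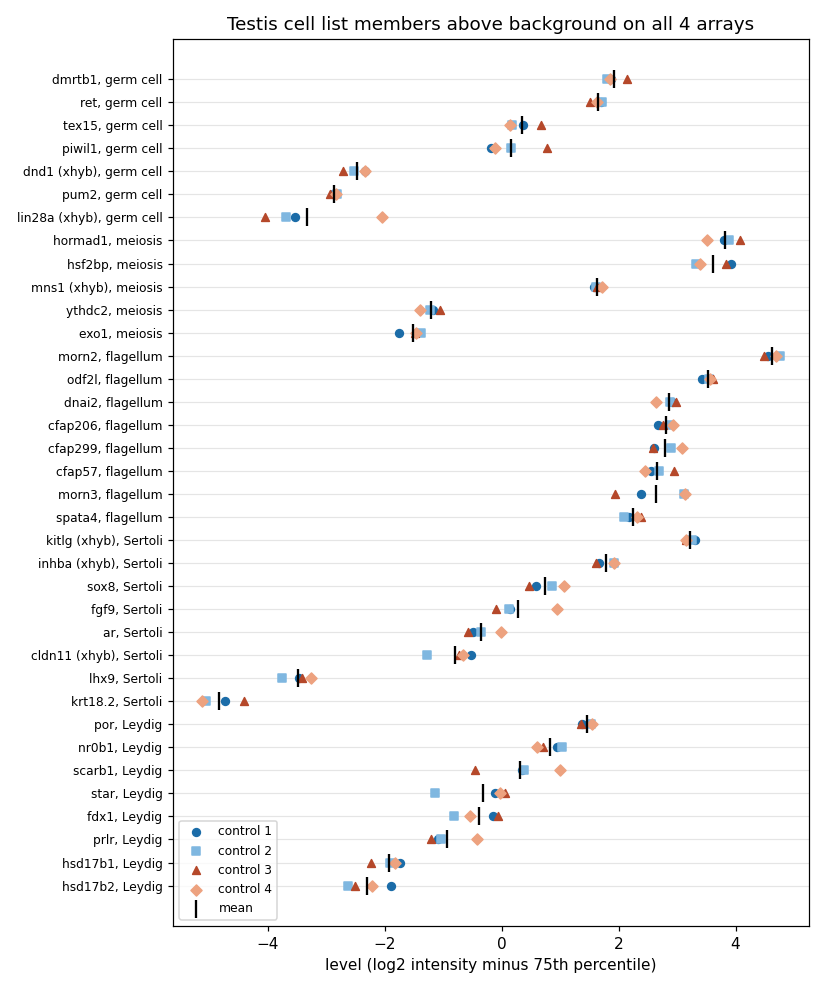
Level (horizontal axis, log2 intensity minus the 75th percentile) of the members of highest mean, up to 8 per list and among those reported here, of the germ cell, meiosis, flagellum, Sertoli cell and Leydig cell lists that were well above background on all 4 control arrays, with 1 symbol per array and a bar at the mean. Flagellum and meiosis genes and the Sertoli cell gene kitlg, an xhyb reading, reach above 3, and star shows control 2 apart from the other controls.

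Markers of the supporting and vascular cells of the testis gave mixed signal. Among peritubular and smooth muscle genes 5 of 6 were above background on all 4 arrays, with lmod1 at -0.94 ± 0.44 and myocd at -1.60 ± 0.24, and itga8 was on none. For endothelium 7 of 10 were above on all, with a list median of -3.38, below the -2.61 of all named genes. The receptor gene tie1 stood alone at the top, with 1.08, 1.19, 1.13 and 1.35, while its relative tek averaged -3.44 ± 0.32 and the VEGF receptor gene flt1 -4.05 ± 0.53. The VEGF receptor gene kdr was above background on 2 arrays. The transcription factor gene erg, an xhyb reading, was not well above background (SD, n = 4 each).

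Leukocyte genes had the lowest share detected among the lists with at least 5 named genes. Of 17 leukocyte genes 7 (41.2%) were above background on all 4 arrays and 4 on none, and the median was -5.58. The 1 bright member, laptm5, was an xhyb reading with 3.24, 3.45, 3.20 and 3.23. On specific probes the peroxidase gene mpo gave -1.13, -1.14, -0.87 and -0.72. The T cell genes cd3e and cd247 were above background on 1 and 0 control arrays, and cd53 and lyz on none. For erythrocytes 7 of 11 genes were above on all (63.6%), with fech, the enzyme that completes heme, at 1.98 ± 0.12, and the globin copies hba-l3 and hba-l4, both xhyb readings of a multigene family, at 0.02 ± 0.14 and -3.89 ± 0.66 (SD, n = 4 each). Control 4 stood apart in this list, with a median of -2.87 against -4.94 to -4.04 on the other controls. The anion exchanger gene slc4a1 gave -3.30, -4.94, -4.50 and -0.75, the erythroid transcription factor gene gfi1b -3.16, -5.17, -4.37 and -0.94, and the erythropoietin receptor gene epor averaged -2.31 ± 0.89 (SD, n = 4). All 3 were highest on control 4, as were sptb and hba-l4. Other members were not: fech was lowest there, at 1.84 against 1.97 to 2.14 on the other controls, and hba-l3 was highest on control 3. The part of blood in other values of control 4 was not tested. Control 4 was the highest array for 35.6% of all 3523 genes above background on all 4 arrays, more than any other control. Its median was also the highest for the endothelium list, at -2.87, and the lowest for the flagellum list, at 0.18.

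Oocyte genes were included among the other cell types that a gonad could hold. Of 9 named genes 4 were above background on all 4 arrays and 3 on none: the zona pellucida genes zp3.2 and zp4.2, the latter an xhyb reading, and gdf9, a growth factor of the oocyte. The oocyte growth factor gene bmp15 was above on 3 arrays. Those above on all were eef1a1o and vldlr, both xhyb readings, trim36 at -0.57 ± 0.11 and gtf3a, the transcription factor of the 5S RNA genes, at -2.35 ± 0.09 (SD, n = 4 each).

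Genes of organs next to the testis were also read. In the liver list 16 of 24 were above background on all 4 arrays, 9 of them on xhyb probes. On a specific probe the plasminogen gene plg gave 2.78, 2.93, 2.21 and 3.04, and the vitellogenin gene vtga2, the yolk precursor of the female liver, gave -1.54, -1.24, -1.46 and -1.38. The liver genes itih4, c8b and serpina1 were not well above background on any. Kidney genes were above on all for 10 of 18, with cdh16 at 2.47 ± 0.12 on an xhyb probe and lrp2, an endocytic receptor, at 1.38 ± 0.29 on a specific one (SD, n = 4 each). The kidney genes slc12a1, bsnd, slc22a6 and hnf4a were not well above background on any array. Whether neighbouring tissue was present was not tested.

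Neural genes split into 4 of 8 above on all 4 arrays and 4 on none. The neurofilament gene nefl gave 3.42, 2.04, 3.43 and 1.86, high on controls 1 and 3 and low on controls 2 and 4, and its partner nefm gave -0.23, -0.12, -0.11 and -0.51. Not well above background were nefh, chat, dbh and gad1.1. Digestive enzyme genes were above on all for 5 of 11, of which 4 were xhyb readings.

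**Figure D4:**
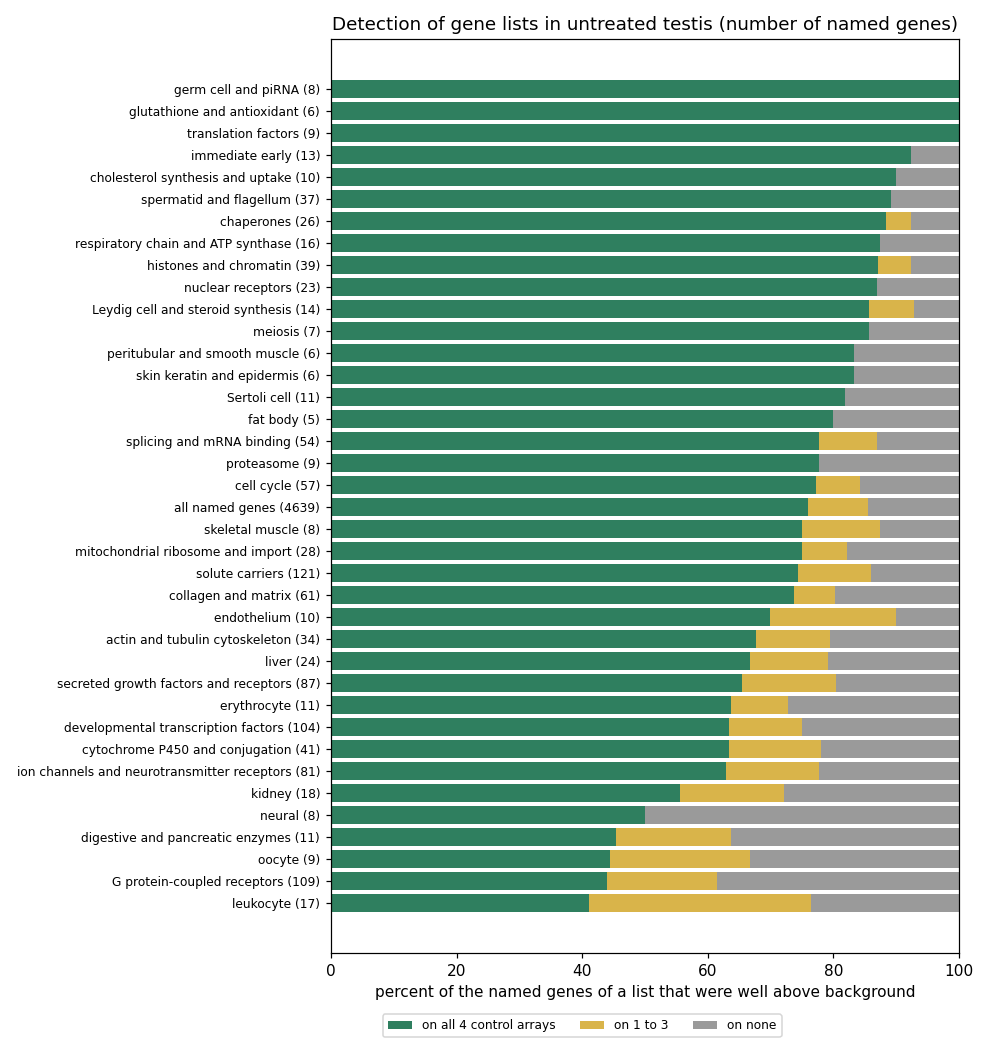
Share of the named genes of each list (horizontal axis, percent) that were well above background on all 4 control arrays (green), on 1 to 3 (yellow) or on none (grey), for lists with at least 5 named genes, whose number stands in brackets. By the green share germ cell genes lie at 100%, all named genes at 75.9% and leukocyte genes lowest at 41.2%.

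Genes of the cell's general machinery lay above the median of all named genes, -2.61, in most lists. Below it lay the medians of the glycolysis (-3.82), cytochrome P450 and conjugation (-3.67) and actin and tubulin cytoskeleton (-3.52) lists. That of the translation factors was close to it, at -2.59. Of 16 respiratory chain and ATP synthase genes 14 were above background on all 4 arrays and 4 were bright, all on specific probes, with a median of 0.59. They were ndufb1 at 3.85 ± 0.13, ndufc2 at 3.33 ± 0.33 and ndufa5 at 3.22 ± 0.07, subunits of complex I, and sco2, a copper chaperone of cytochrome oxidase, at 3.24 ± 0.19 (SD, n = 4 each). Not well above background were cox7a1, the isoform of heart and skeletal muscle in mammals, and uqcr10 on an xhyb probe. Of 28 genes of the mitochondrial ribosome and import 21 were above on all and 5 on none.

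Beside 75.9% of all named genes, the share above background on all 4 arrays was 87.2% for the histone and chromatin list, 77.8% for the splicing list and 77.2% for the cell cycle list, the last pair near the share of all genes. Histone and chromatin genes were above background on all 4 arrays for 34 of 39, and on specific probes for 30 of 30. The 2 bright members were setd5, a SET domain gene, at 3.58 ± 0.18 and chd3, a chromatin remodeller, at 3.55 ± 0.40 (SD, n = 4 each), the latter from 4.12 on control 1 to 3.20 on control 3. In the splicing list 42 of 54 were above on all, with hnrnpm at 4.07 ± 0.12 and sf3b2 at 3.44 ± 0.29 the brightest on specific probes. Cell cycle genes were above on all for 44 of 57, with ccnb3, a cyclin of meiosis in mouse, at 3.52 ± 0.20 and the spindle motor gene kif11 at 3.09 ± 0.13 on specific probes (SD, n = 4 each).

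Cholesterol and stress genes were read with the androgen pathway in mind. Of 10 cholesterol synthesis and uptake genes 9 were above background on all 4 arrays, with the receptor genes lrp1 and ldlr at 2.28 ± 0.42 and 1.94 ± 0.46 (SD, n = 4 each). These were the brightest on specific probes, and the list's median was -2.05, beside -2.61 for all named genes. On specific probes alone it was -3.20, beside -2.72 for all genes on such probes. The immediate early list, genes switched on within minutes of a stimulus, was above on all for 12 of 13. Its median was 0.13, and -2.32 on specific probes alone. Levels of junb were 2.47, 2.71, 1.99 and 1.96, higher on slide 1 than on slide 2, and those of the clock gene per1 were 2.20, 1.95, 1.85 and 2.04. The nuclear receptor list was above on all for 20 of 23, with the vitamin D receptor gene vdr at 2.13 ± 0.16 (SD, n = 4). The median of that list was -2.76.

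Receptors and developmental regulators were the least detected large lists. Of 109 G protein-coupled receptor genes 48 were above background on all 4 arrays, 42 (38.5%) on none and none was bright, with a median of -5.55. The brightest on specific probes were gpr162, an orphan receptor, with 1.27, 1.25, 0.89 and 0.78, and ptger2, a prostaglandin receptor, with 0.80, 0.69, 0.62 and 0.79. Developmental transcription factor genes were above on all for 66 of 104 and on none for 26. Their 4 bright members, rax, foxf1, pax1 and hoxa13, were all xhyb readings, and on specific probes 39 of 64 were above on all and 0 were bright. Of 87 growth factor and receptor genes 57 (65.5%) were above on all, and of 81 ion channel and neurotransmitter receptor genes 51 (63.0%). Over all named genes the shares were 75.9% on all 4 arrays and 14.5% on none.

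Of 61 collagen and matrix genes 45 (73.8%) were above background on all 4 arrays and 12 (19.7%) on none, beside 75.9% and 14.5% of all named genes, and 0 were in the bright band. On specific probes the collagen-modifying enzyme gene plod3 gave 2.63, 2.27, 1.86 and 2.42, the glypican gene gpc4 1.60, 1.59, 1.97 and 1.98 and the basement membrane collagen gene col4a1 1.28, 1.18, 1.39 and 0.90. Solute carriers were above on all for 90 of 121, near the share of all named genes.

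The middle of the detected range is shown by the genes nearest its centre. These were asb3 at -1.04 ± 0.17, echdc3 at -1.04 ± 0.13, the chromatin remodeller gene chd7 at -1.04 ± 0.28 and mfsd4b at -1.03 ± 0.02, with crygdl.5 at -1.04 ± 0.17 and itgb3bp at -1.05 ± 0.34 on xhyb probes (mean level ± SD, n = 4 each). Their SDs ran from 0.02 to 0.34 at nearly the same mean.

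Spread between control arrays was small for most genes and smaller for bright ones. Over the 3523 genes above background on all 4 arrays the median SD was 0.21 and the median range 0.46, or 1.38-fold, and 393 (11.2%) ranged over more than 2-fold. Among bright genes the median SD was 0.16, and 3 of 164 ranged over more than 2-fold: zfand1, clcn7 and tnip2, all xhyb readings. In the mid-level band the median SD was 0.19 and 53 of 684 did so. Where 1 transcript was read by 11 probes on the same array, the SD within the array had a median of 0.09 over 32 sets, against 0.23 for the SD of their means between arrays. Between-array SD was the larger in 27 of the 32 sets.

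Within the bright and mid-level bands, the 8 genes of widest range followed one of a pair of opposite orders of the arrays. Outside these bands ranges could be wider and the order another, as for gfi1b and slc4a1 (ranges 4.23 and 4.19). Levels of myo1f, a myosin of leukocytes in mammals, were -1.31, -0.33, -3.54 and -0.32 on controls 1 to 4. The regulator of multiciliated cells mcidas gave -0.71, 0.01, -2.53 and 0.02. For hspb2, a small heat shock protein gene, the levels were -1.74, -0.70, -3.29 and -0.55, and for pdlim2 they were -1.49, -0.68, -3.23 and -0.74. Control 3 was lowest and controls 2 and 4 were highest for these 4 genes. The same order held for minar1, with -1.78, -1.67, -2.88 and -0.40, where control 2 lay only just above control 1.

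The opposite order was seen for the others. Levels of naa80, the acetyltransferase of actin, were 0.22, -1.55, 1.07 and -1.57. For zc3h14, an RNA-binding gene, they were -0.92, -2.52, -0.10 and -3.17, and for ocm1, an oncomodulin gene, -1.34, -2.74, -0.36 and -2.50. Controls 2 and 4 were low and control 3 was highest for these 3 genes. The narrowest ranges in the bright and mid-level bands were 0.04 for robo3, arfgef2, marchf6 and mfsd4b.

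**Figure D5:**
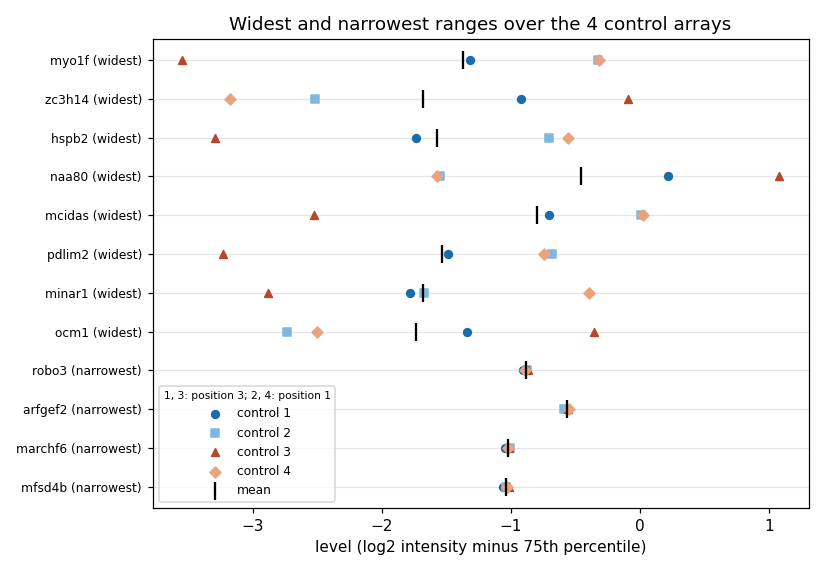
Level (horizontal axis, log2 intensity minus the 75th percentile) of the 8 bright or mid-level genes of widest range and the 4 of narrowest range, with 1 symbol per control array and a bar at the mean. Controls 2 and 4, at position 1 of their slides, lie on one side of controls 1 and 3 for each of the 8 wide genes, by a small margin for minar1.

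Control arrays were compared by slide, which was the batch that the files name. In limma no probe passed between slide 2 and slide 1 (0 of 24206, 0%, with 287 at an unadjusted p under 0.05). The fit had 2 arrays on each side. On simulated arrays it called 0% of log2 changes of 1, 40% of those of 2, 86% of those of 3 and 82% of those of 4. The simulated spread was independent between arrays and not tied to position, so recovery on the real arrays was not measured. A 2-fold difference between slides could thus be missed. Compared by position on the slide instead, a split added after the data were seen, 1 of 24206 probes passed (0.00413%) and 2661 had an unadjusted p under 0.05. Among the 393 named genes that ranged over more than 2-fold, controls 2 and 4 lay together on one side of controls 1 and 3 for 258 (65.6%). The arrays of a slide lay together for 39 (9.92%), and controls 1 and 4 for 96 (24.4%). The share of these splits over all genes above background is not given here. Control 3 alone was the lowest array for 236 of the 393 (60.1%), against 34.0% of all 3523 genes above background on all 4 arrays. None of the 8 wide genes passed by position: the limma adjusted p was lowest for naa80, at 0.15, with a mean of -1.56 at position 1 and 0.64 at position 3. Position and whatever else controls 1 and 3 share cannot be told apart.

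The finasteride arrays gave the same measure in samples that the bands had not used. Of the 164 bright genes, 123 lay at or above the array's own 95th percentile on all 4 finasteride arrays, with 139 to 153 per array, against 150 to 158 per control array. No bright gene lay under it on all 4. The band was chosen on the control arrays, so higher counts there are built in and do not measure a change with finasteride. The same holds for the genes sorted below as above background or dim on the controls. Of the 3523 genes above background on all control arrays, 3374 (95.8%) were above on all finasteride arrays and 0 were dim on all. Of the 674 dim on all control arrays, 358 were dim on all finasteride arrays and 2 were above background on all of them: oprd1, an opioid receptor gene, and hcrtr2, an orexin receptor gene. These 2 were named after their values were seen.

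Between the groups no probe passed in limma (0 higher and 0 lower of 25656 tested, 0%; 1025 at an unadjusted p under 0.05; lowest adjusted p 0.191). On simulated arrays with independent spread this fit called 62% of log2 changes of 1, so a 2-fold difference could be missed. The 4 values of each group did not overlap for 533 probes (2.08%), and for 2 of the 164 bright genes (1.22%). These were hspa1b, at 6.17 ± 0.36 (SD, n = 4) in controls against 5.64, 5.32, 4.56 and 5.10 on finasteride arrays 1 to 4, and hoxa13, an xhyb reading, at 3.98 ± 0.16 (SD, n = 4) against 3.51, 3.65, 3.46 and 2.94. Neither passed in limma, where the difference was -1.01 (95% interval -1.60 to -0.43) for hspa1b and -0.59 for hoxa13, with an adjusted p of 1.00 for both. The median log2 difference over bright genes was -0.01. Of named genes, 80.4% ± 1.81 were above background per control array and 83.7% ± 6.73 per finasteride array (SD; exact permutation p = 0.371, two-sided, n = 4 each), with the finasteride arrays between 74.9% and 90.4%. Finasteride arrays lay at positions 2 and 4 and controls at positions 1 and 3, so the effects of position and of treatment cannot be told apart.

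The testis lists were read on the finasteride arrays too. On finasteride arrays 72 of the 82 testis list genes were above background on all 4 and 7 on none, with a median level of -0.53 beside -0.55 in controls. Of the 127 genes of other cells and tissues 78 were above on all and 19 on none. Of all 4639 named genes 3417 (73.7%) were above on all finasteride arrays and 395 on none, beside 3523 and 674 on the control arrays. The median of the flagellum list was 0.51 with finasteride and 0.47 without, that of the Leydig cell list -2.05 and -2.13, and that of the leukocyte list -5.34 and -5.58. These are values without a test.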

How the data were processed

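RNA of 4 control and 4 finasteride samples was read on 1-colour Agilent arrays. The deposited files hold Cy3 intensity per spot, already background-corrected; the file headers name Agilent Feature Extraction 10.7.1.1 and the genome build JGI 4.1. The authors' value table is on a log2 scale with processing not given in the sources used here, and its values followed quantile normalization of the log2 processed intensity. Direction does not arise for 1 channel.

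Outlier and control spots were left out, up to 2 spots of a probe averaged, and the 75th percentile of log2 intensity subtracted. A gene was read from its brightest probe by mean control level. Names came from transcript accessions through a RefSeq gene table of assembly UCB_Xtro 10.0, used for names only: 5891 of 32899 probes matched. Tests used limma 3.58.1 in R 4.3.3 with Benjamini-Hochberg adjustment at 0.05, over probes well above background on at least 3 arrays of either group, or of the controls for slide and position. The fits were tested on simulated data.

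The genes named were the 25 brightest on specific probes, those at the edges and centre of the bands, the 8 of widest and 4 of narrowest range in the bright and mid-level bands, and members of the 39 gene lists. Some list members are not reported here. The members and lists were chosen with earlier results of these data known. Normexp used the median signal with an offset of 50, because the files have no mean signal.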

Additional observations from a re-analysis of the deposited data

Results flagged for a closer look

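Among 261 genes tested in the 4 control arrays, 14 had a highest or lowest array far from the other 3, where chance gives 1 in 20, or 13.05. On control 4, serpinf2 lay at -1.13 against -1.75 to -1.68, hrg at -1.78 against -2.53 to -2.45, clec14a at -2.62 against -3.38 to -3.27 and mcam at -3.53 against -4.10 to -4.07. Also on control 4, ccdc151 lay at 1.05 against 1.53 to 1.62 and fgg at -0.59 against -0.54 to -0.53. On control 2, star lay at -1.15 against -0.12 to 0.05, ubxn4 at 4.52 against 4.33 to 4.35, laptm5 at 3.45 against 3.20 to 3.24 and glra2 at 1.04 against 1.24. On control 1, septin7 lay at 3.69 against 2.89 to 2.97, cdh16 at 2.64 against 2.39 to 2.43 and spata6 at -2.60 against -2.54 to -2.53. On control 3, iah1 lay at 4.07 against 4.35 to 4.40. The number of such genes is close to what chance gives, and causes were not tested.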

How the results depend on the processing

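The count of bright genes followed the edge chosen: 374 at the 90th percentile and 47 at the 98th, of which 275 and 32 lay at or above that percentile on all finasteride arrays. Genes dim on every control array numbered 149 with the scanner's positive and significant flag, and 358 when all 8 arrays had to be dim, an alternative chosen after seeing the data. Leaving out 1 control array gave 162 to 165 bright genes, and normexp gave 158, of which 152 were bright in the main setting too. Normexp moved the median of all genes by 0.91, so levels of dim genes depend on background correction. For finasteride, leaving out 1 array gave 0 to 7 called probes: 7 without control 3, and 2 each without finasteride 1, finasteride 2 or finasteride 4. With the replicate block 0 probes were called, as with the slide as a block. Arrays of equal number deviated from their group means with correlations of 0.30, 0.37, -0.06 and -0.03. For controls 1 and 2 the finasteride array of equal number correlated best, and for controls 3 and 4 it did not. Whether samples were paired is not settled by these values. Position in place of slide, chosen after seeing the data, called 1 probe. Promoter and protein features were not run, as no sequence table was used here. Signal over background limits the dim genes, and the number of arrays limits the precision.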

Other observations

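The probe that passed between positions carried no gene name. Its levels were 3.93, -5.76, 5.01 and -5.56 on controls 1 to 4, a difference of 10.13 between position 3 and position 1 (95% interval 9.23 to 11.03, limma adjusted p = 0.00533). On finasteride arrays 1 to 4 it gave 5.75, -4.27, 4.97 and 5.08, so the low finasteride array shared its position with a high one.

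Of the 393 genes that ranged over more than 2-fold between controls, 215 (54.7%) also did so between finasteride arrays, against 801 of 3130 (25.6%) of those with a narrower control range. The ranges of myo1f were 3.23 and 4.37, of ocm1 2.38 and 3.60, and of robo3 0.04 and 0.75, in controls and finasteride arrays. These values have no test.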
